A study of Mus musculus with 55 samples.

Results

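The UDP-glucuronosyltransferases (Ugt) and sulfotransferases (Sult) of mouse liver were described across genotypes, sexes and damage models. Members were all symbols of the Ugt1a, Ugt2a, Ugt2b, Ugt3a and numbered Sult families, chosen by name and without any measured value. There were 42 members among 49997 symbols in the first batch of count files and 49568 in the second: 21 Ugt genes (9 Ugt1a, 3 Ugt2a, 7 Ugt2b and 2 Ugt3a) and 21 Sult genes (6 Sult1, 9 Sult2 and 6 of the Sult3 to Sult6 families). Of these, 36 passed the filter on low counts in a comparison or more, 6 passed in none and are described only by their counts, and 4 had no read in either batch.

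The study concerns RNF43 and ZNRF3, membrane ubiquitin ligases that remove WNT receptors from the cell surface. All mice were adult and carried floxed RING-domain exons of both genes. R&Zdel mice had lost these exons in hepatocytes, either after tamoxifen through Alb1-CreERT2, whose Cre is under the albumin promoter, or after the AAV8-TBG-Cre virus, whose Cre is under the hepatocyte TBG promoter. R&Zflox mice, which GEO labels wild-type on a C57BL/6 background, kept the exons. RNA of whole livers was read without damage at 1, 3 and 7 months after deletion (1M, 3M and 7M), at 4, 50 and 170 days of recovery from chronic damage (CD) by repeated CCl4, and at 7 and 21 days after partial hepatectomy (PHx). The virus was used at 1M, after PHx and in the second batch at 3M, and tamoxifen elsewhere. There were 4 R&Zdel and 4 R&Zflox libraries at 1M, 2 and 5 at 3M, and 5 of each genotype at 7M. After CD there were 2 R&Zdel libraries at each of 4, 50 and 170 days and 2, 1 and 2 R&Zflox libraries, and after PHx there were 3 of each genotype at both times. Only 1M held both listed sexes in both genotypes. All CD libraries were listed as male, and labels do not say whether the R&Zdel livers at 170 days were sampled at a tumour. According to the methods, the littermate controls of the CCl4 series received the oil vehicle. The results of the paper instead describe wild-type littermates put through the same damage as the mutants. The sample labels also place R&Zflox libraries in the chronic damage groups. These libraries are taken here as damaged, by their labels, although the statements differ.

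Both enzyme families make lipophilic molecules water-soluble for excretion. Ugt enzymes sit in the endoplasmic reticulum and join a sugar, mostly glucuronic acid from UDP-glucuronic acid, to bilirubin, steroids, thyroid hormone and drugs. Sult enzymes work in the cytosol and transfer sulfate from PAPS to phenols, hydroxysteroids, bile acids and amines. In mouse liver several of them differ between the sexes, under the control of the pattern of growth hormone secretion. Glucuronidation is among the functions that are strongest in hepatocytes around the central vein, where WNT signalling is highest.

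In all, 53 libraries had between 11721687 and 38692089 counted reads, and 5 of them entered no comparison, since their labels conflict. Levels are given as CPM, the counts scaled to the total of the library. Fold changes come from fits with a further normalization between libraries (TMM), so they can differ from what the CPM give. The pericentral gene Glul, which encodes glutamine synthetase, lay between 309 and 1315 CPM in the 11 undamaged R&Zdel libraries and between 64.4 and 228 in the 14 R&Zflox libraries, and the periportal gene Cyp2f2 between 99.5 and 677 and between 1095 and 3514. Counts over the whole Rnf43 and Znrf3 genes do not check the deletion, which removes some exons only. Library R&Zflox PHx 7d replicate 3, listed as male, had 375 CPM of Xist, the RNA of the inactive X, and none of the Y-linked Ddx3y, against the listed sex. In the second batch, R&Zdel 7M replicates 3 and 5 and R&Zflox 3M replicate 5 stood apart, with Ugt1a9 at 3.15, 0.115 and 0.0835 CPM where the other undamaged libraries of that batch had 18.9 or more. Another 2 libraries in the comparisons, R&Zdel 3M replicate 4 and R&Zflox 7M replicate 5, have titles that name another group, and were placed by their characteristics and the study's list. Without both, 0 members were called at 3M and 1 at 7M, as with them. No source says which libraries came from separate litters, so p-values measure the spread between the libraries as labelled.

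Most members lie in 3 gene clusters of the mouse genome (mm10). The 9 Ugt1a genes lie on chromosome 1, from 88055411 to 88220002, and share their last exons. Only 27.8% to 42.8% of their exon bases belonged to 1 gene, except that Ugt1a10 had none, and reads over the shared exons were not counted. The 10 Ugt2 genes and Sult1b1, Sult1d1 and Sult1e1 lie on chromosome 5, from 86889770 to 87591611, and the 8 Sult2a genes on chromosome 7, from 13623967 to 14493023. Near-identical copies limit what can be told apart. Of all 50-base stretches of the Sult2a2 transcript, 36.6% occurred in no other gene, compared with 66.7% for Sult2a1, 65.3% for Sult2a5, 58.9% for Ugt2b5, 62.6% for Ugt2b38 and 81.7% for Ugt2b37. Values of these 6 genes are uncertain to that extent.

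In undamaged R&Zflox livers, 8 members were among the 10 most abundant in both batches: Ugt2b5, Ugt2b36, Ugt2b1, Ugt2b34, Ugt2a3, Ugt3a2, Sult2a8 and Sult1a1. Per kb of countable exon, the only scale on which genes are compared here, Ugt2b5 was first in listed males of the first batch, with a level of 585.5 CPM per kb ± 37.6 (SD, n = 3), and Ugt2b36 second with 443 ± 22.4. Both glucuronidate steroids and xenobiotics. Sult2a8, a bile acid sulfotransferase, followed with 330 ± 58.3 CPM per kb, and Sult1a1, the main phenol sulfotransferase, with 193 ± 23.7. Each of these 4 levels lay more than 1 SD above the next. Below them, Ugt2b1 had a level of 149.9 ± 11.9 CPM per kb, Ugt1a9 141 ± 29.2 and Ugt3a2, which transfers glucose and xylose, 139 ± 5.3, and these 3 did not differ beyond their spread. Ugt1a1, which conjugates bilirubin, had 62.2 ± 14.1 CPM per kb. In listed males of the second batch the first 4 members came in the same order, with 484 ± 141 CPM per kb for Ugt2b5 (SD, n = 8), and there Ugt2b5 and Ugt2b36 (406 ± 105) overlapped. In the 2 listed females of that batch, Ugt2b5 (341 CPM per kb) and Ugt2b36 (320) were followed by Sult1a1 (291), Sult2a2 (207) and Sult3a1 (199), with Sult2a8 at 180.

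**Figure D1:**
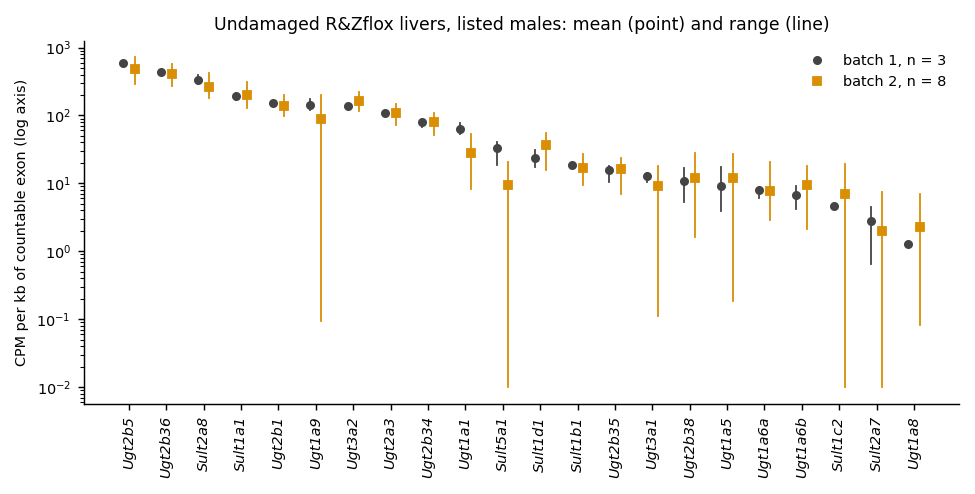
Mean level (points) and range (lines) of members in undamaged R&Zflox livers of listed males, in CPM per kb of countable exon on a log axis, for the 3 libraries of batch 1 and the 8 of batch 2, showing members with a mean of 1 CPM per kb or more in batch 1. Ugt2b5, Ugt2b36, Sult2a8 and Sult1a1 were the 4 highest in both batches.

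At the other end, Sult1c1, Sult6b1, Sult6b2, Ugt2a1 and Ugt2a2 never exceeded 1 CPM in a library with a group. Sult1e1, which inactivates oestrogens, had a read in 18 of 18 libraries of the first batch but in only 2 of 30 of the second. The reverse held for Ugt1a10, with a read in 0 of 18 and 28 of 30 libraries, and for Sult2a6, with a read in 0 of 18 and 5 of 30. The countable exons of Ugt1a10 in the first batch were 0 bases long. Levels of these 3 genes are therefore given within a batch, although the undamaged fits of both batches included them.

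The largest fitted differences among members, those of Sult3a1 and Sult2a2, lay between the listed sexes at 1M. The filters differ between comparisons, so this ranking is a description. At 1M, 7 members were higher and 2 lower in females of 32 tested, where 1.09% of all 13211 genes were called (an adjusted p under 0.1 with a log2 change of more than 1), 0.553% higher and 0.537% lower. The members' median log2 fold change was 0.41, beside 0.02 over all genes. The filter there asked for 1 CPM in 2 libraries, so that Sult2a1, Sult2a2, Sult3a1 and Sult3a2 passed through females alone and Ugt2b38 through males alone. These 5 of the 9 members could only pass by differing, and their values are given as descriptions without a test. The counts and the members' median above include them. Genotype and sex were fitted together, and the difference of the genotype effect between the sexes was called for none of the 32 members. In edgeR, 2 members had an unadjusted p under 0.05 for that difference and 0.00757% of genes were called, and DESeq2 called 1 member, Sult2a8.

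Sult3a1, an amine sulfotransferase, was measured at 296 and 174 CPM in the R&Zflox females and at 119 and 109 in the R&Zdel females. All 4 males were at 0, so that its level was at least 1304-fold higher in females (floor of 3 reads in each library). Its neighbour Sult3a2 gave at least a 182-fold difference, with 36.9 and 19.2 CPM in R&Zflox and 29.8 and 11.7 in R&Zdel females and 0 in each male. Sult2a2, of the hydroxysteroid and bile acid sulfotransferases, lay at 139 and 168 CPM in R&Zflox and at 143 and 37.5 in R&Zdel females, at least 912-fold above the males, which were all at 0. Sult2a1 lay at 87.3 and 206 CPM in R&Zflox females, at 73.1 and 9.58 in R&Zdel females and at 0.766 or less in males. Females and males did not overlap for any of these 4 sulfotransferases in either genotype.

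Less extreme differences were found for more abundant members. Sult1a1 ranged from 610 to 811 CPM in females and from 317 to 402 in males (log2 fold change 1.03, SE 0.13, adjusted p = 0.00335). Sult5a1 ranged from 51.2 to 85.6 CPM in females and from 14.1 to 29.8 in males (1.75, SE 0.28, adjusted p = 0.0136). In the other direction, Ugt2b1 ranged from 84.4 to 253 CPM in females and from 318 to 508 in males (-1.51, SE 0.21, adjusted p = 0.00531). The sexes did not overlap for these 3 members either. Members named for their calls are apt to separate, and the share of all genes without overlap was not counted in any comparison. Ugt2b5 and Ugt2b36, the most abundant members, were not called, at 620 to 758 and 470 to 889 CPM in females and 734 to 952 and 520 to 876 in males.

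Ugt2b37 and Ugt2b38, glucuronosyltransferases of the chromosome 5 cluster, were opposite to each other. Ugt2b37 was at 89.6 and 117 CPM in R&Zflox and at 48.2 and 51.5 in R&Zdel females, and at 0.0902 to 5.23 in the 4 males (log2 fold change 4.93, SE 0.98, adjusted p = 0.053). This call was lost in 5 of the 8 fits that left out 1 library. Ugt2b38 was at 53.3 and 51.7 CPM in the R&Zflox males and at 0.939 or less in all 4 females. Apart from sharing coding sequence, these genes have nearly the same sequence ahead of their start sites. In the 250 bases upstream of each (RefSeq, GRCm38.p6, minus strand, Ugt2b37 at chr5:87254789-87255038 and Ugt2b38 at chr5:87424204-87424453), 224 positions were identical in the alignment, or 89.6%. They are shown because a female-high and a male-high gene differ there by few bases. Capitals mark the 26 bases of each that have no identical partner.
Ugt2b37: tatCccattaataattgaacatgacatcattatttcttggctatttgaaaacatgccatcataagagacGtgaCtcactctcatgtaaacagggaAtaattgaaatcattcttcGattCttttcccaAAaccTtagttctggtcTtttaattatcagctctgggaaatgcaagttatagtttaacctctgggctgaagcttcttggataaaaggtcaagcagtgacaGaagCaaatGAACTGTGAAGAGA
Ugt2b38: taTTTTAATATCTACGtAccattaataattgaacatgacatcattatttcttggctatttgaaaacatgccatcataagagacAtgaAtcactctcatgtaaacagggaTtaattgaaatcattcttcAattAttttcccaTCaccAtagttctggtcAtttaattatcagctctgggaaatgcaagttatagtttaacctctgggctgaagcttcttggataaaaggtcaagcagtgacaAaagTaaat
The 2 windows have equal length and are offset in the alignment. The 14 capitals at the 3′ end of Ugt2b37 lie beyond the end of the other sequence. The 14 capitals near the 5′ end of Ugt2b38 match that offset at the edge of the window. Neither stretch is therefore shown to be absent from the other gene.

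**Figure D2:**
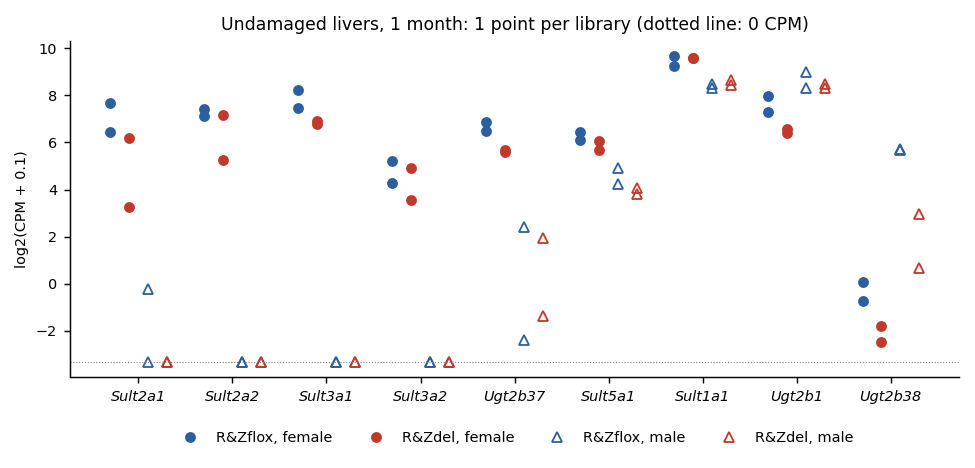
Levels of the 9 members called between the sexes in undamaged livers at 1M, as log2(CPM + 0.1) on the y axis, with 1 point per library, blue for R&Zflox and red for R&Zdel, filled circles for listed females and open triangles for listed males. Females and males are apart for each member, with Sult3a1, Sult3a2 and Sult2a2 at 0 CPM in all 4 males, while Ugt2b38 is lower in R&Zdel than in R&Zflox in both sexes.

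The first question of the design is what the deletion does to an undamaged liver. At 1M, 1 of 33 members was called lower in R&Zdel and none higher, where 0.436% of 12848 genes were called, 0.218% higher and 0.218% lower. At 3M no member was called, where 0.226% were, while 7 members and 826 genes had an unadjusted p under 0.05 and DESeq2 called 1 member. At 7M, 1 member was called lower and none higher, where 0.451% were called, 0.249% higher and 0.202% lower. Without R&Zdel 7M replicate 4 there were 4 members at 7M. Without the 3 libraries that stood apart there were 2 at 3M (Sult2a1 and Sult2a2, lower) and 2 at 7M (Ugt2b38 and Sult5a1, lower). No R&Zflox 3M library was listed as female. The 3M values of Sult2a1 and Sult2a2, high in females, therefore depend on the sex term and on R&Zdel 3M replicate 4. That listed female had 18.5 CPM of Xist, where the listed female R&Zflox 7M replicate 5 of the same batch had 148. The medians of the members were -0.22, -0.20 and 0.04 on the log2 scale, beside 0.01, -0.09 and -0.02 over all genes. The 8 most abundant members were not called at any of these times. At 1M, for example, Ugt2b36 lay at 646 to 889 CPM in R&Zdel and at 470 to 737 in R&Zflox, and Sult2a8 at 165 to 563 and at 371 to 593, with overlapping groups.

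The member called at both 1M and 7M was Ugt2b38. At 1M, the R&Zdel males had 7.64 and 1.48 CPM where the R&Zflox males had 53.3 and 51.7, and the females had 0.186 and 0.0805 where R&Zflox females had 0.508 and 0.939. The genotypes did not overlap within either sex. The fitted difference was -3.21 on the log2 scale (SE 0.78, adjusted p = 0.0843), and it no longer passed when any 1 library was left out, when only males were used or with a block for the replicate number. At 7M, R&Zdel libraries had 0.827 and 1.29 CPM in the first batch and 0.103, 0.583 and 0.172 in the second. R&Zflox males had 18.8 CPM in the first batch and 6.43, 18.6 and 5.46 in the second, above every R&Zdel library, while the R&Zflox female of the first batch had 0.522. The difference was -4.71 (SE 0.73, adjusted p = 0.00127), and it was -4.12 (adjusted p = 0.01) without the 3 libraries that stood apart. With a block for the replicate number it was -4.88 and not called. DESeq2 gave no adjusted p for it at 7M. In the second batch alone the value was -5.12, not called (adjusted p = 0.767), with 3 libraries against 3, and in the first batch alone the gene did not pass the filter. At 3M, a listed R&Zdel male had 4.29 CPM, within the 3.09 to 31.8 of the R&Zflox males, and a listed R&Zdel female had 0.0971 (-1.97, SE 0.94, adjusted p = 0.771).

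Sult5a1 was called in no undamaged comparison with all libraries, but its groups separated within the first batch at 7M. There it had 3.57 and 2.92 CPM in R&Zdel, against 64.8 in the R&Zflox male and 81.9 in the R&Zflox female, and that batch alone gave -4.36 (adjusted p = 0.0228). In the second batch R&Zdel had 8.78, 1.03 and 5.11 CPM and R&Zflox 33.1, 11.6 and 4.76, which overlapped. Both batches together gave -2.25 (SE 0.83, adjusted p = 0.407), and -3.92 (SE 0.65, adjusted p = 0.00727) without the 3 libraries that stood apart, of which R&Zdel 7M replicates 3 and 5 belong to this comparison.

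**Figure D3:**
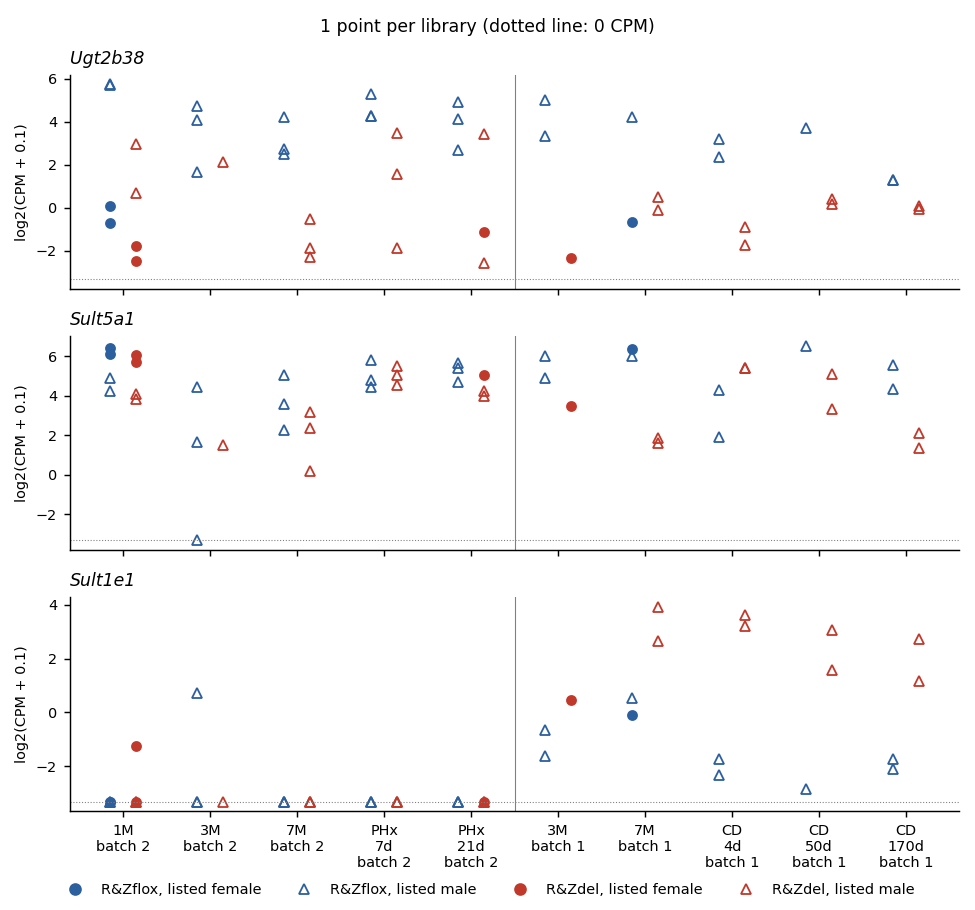
Levels of Ugt2b38 (top), Sult5a1 (middle) and Sult1e1 (bottom) in every group, as log2(CPM + 0.1) on the y axis, with 1 point per library, blue for R&Zflox and red for R&Zdel, filled circles for listed females and open triangles for listed males; the vertical line separates batch 2 (left) from batch 1 (right). The Ugt2b38 points of R&Zdel males at 7M lie below those of R&Zflox males in both batches, and the Sult1e1 points of R&Zdel lie above those of R&Zflox at 7M and after CD in batch 1.

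The next comparison asked how livers with and without the deletion differ during recovery from chronic CCl4. At 4 days, 2 members rose and 10 fell in R&Zdel of 23 tested, where 15.5% of 11935 genes were called, 10.2% higher and 5.24% lower. The members' median was -0.64, beside 0.06 over all genes. The members that fell came from several families: Ugt1a1, Ugt1a5, Ugt1a6a and Ugt1a6b of the bilirubin and phenol enzymes, Ugt2b1, Ugt2b5 and Ugt2b38 of the steroid enzymes, Ugt3a1, and Sult2a7 and Sult2a8 of the Sult2a cluster. Those that rose were Ugt1a9 and Sult1e1. At this time Sult2a7 was above 1 CPM in 1 R&Zflox library and in 0 R&Zdel libraries, so its call rests on levels near the floor. Sult1e1 passed the filter of 1 CPM in 6 libraries only through the 6 R&Zdel libraries after CD, and Ugt2b38 passed it only with the help of R&Zflox libraries of 4 days, so that the calls of both at this time are descriptions. The count was 6 without R&Zdel replicate 1, 3 without R&Zdel replicate 2 and 5 without R&Zflox replicate 1, in fits that leave 1 library in an arm and assume that it varies like the other groups. In a bulk liver sample, fewer cells of a type and less RNA per cell cannot be told apart.

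Sult2a8 was the abundant member with the largest fall. It had 25.5 and 19.7 CPM in R&Zdel at 4 days, where R&Zflox had 263 and 108 and the 3 undamaged R&Zflox libraries of listed males of that batch had 733 to 1002. The groups did not overlap (log2 fold change -3.52, SE 0.44, adjusted p = 0.00222), and the call held in all 10 alternatives. In the 250 bases ahead of its upstream start site (chr7:14446588-14446837, minus strand), Sult2a8 was the only one of the 39 member promoters with CTTTGAT, a form of the TCF motif through which WNT acts, on either strand. It is shown for that reason, with the match in capitals on the opposite strand. The counted Sult2a8 gene starts at 14446780, so this window lies partly within it.
Sult2a8: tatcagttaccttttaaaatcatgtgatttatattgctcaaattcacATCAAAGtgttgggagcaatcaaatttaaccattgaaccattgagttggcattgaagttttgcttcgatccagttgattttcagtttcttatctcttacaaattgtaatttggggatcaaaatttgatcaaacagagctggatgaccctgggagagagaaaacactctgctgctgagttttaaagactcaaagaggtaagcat
The motif occurs in 3.21% of all 32851 promoters of that length, so a match in 1 of 39 is not a result about the members.

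Ugt2b38 had 0.436 and 0.197 CPM in R&Zdel and 9.12 and 5.04 in R&Zflox. Ugt2b1 had 87.7 and 66.2 CPM in R&Zdel and 199 and 143 in R&Zflox (-1.62, SE 0.38, adjusted p = 0.0216). Ugt2b5, the most abundant member, had 654 and 510 CPM against 1005 and 938 (-1.21, SE 0.29, adjusted p = 0.0227). None of these 3 overlapped between genotypes. With 2 libraries against 2 such a separation carries little weight, and its share over all genes was not counted. Ugt2b36, the neighbour of Ugt2b5, had 643 and 578 CPM in R&Zdel and 805 and 681 in R&Zflox and was not called. Within the Ugt1a cluster the members went both ways. Ugt1a1 had 36.2 and 46.1 CPM in R&Zdel and 60.5 and 69.9 in R&Zflox (-1.15, SE 0.42, adjusted p = 0.0848), and Ugt1a5 6.29 and 8.54 against 20 and 24.6 (-2.08, SE 0.53, adjusted p = 0.0282). Ugt1a9 was higher, with 51.4 and 60 CPM in R&Zdel and 14.4 and 17 in R&Zflox (1.34, SE 0.47, adjusted p = 0.0776). The fitted values of these members lie below those that the printed CPM give, since TMM normalization enters the fits. For Ugt2b5 and Ugt1a1 the printed CPM alone differ by less than the threshold of 1 on the log2 scale.

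Sult1e1 lay between 2.13 and 12.2 CPM in the 6 R&Zdel libraries and between 0.04 and 0.204 in the 5 R&Zflox libraries, without overlap. The log2 fold change was 5.61 at 4 days, 6.84 at 50 days and 4.44 at 170 days, given without a test because the gene passed the filter through R&Zdel alone. In undamaged livers of the same batch at 7M it had 15.1 and 6.27 CPM in R&Zdel and 1.36 and 0.844 in R&Zflox, and the fit of both batches did not call it (2.86, SE 1.99, adjusted p = 0.754).

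Some members with very low levels in the other CD libraries were left out by the filter of 1 CPM in 6 libraries. Sult2a1 had 22.9 and 27.5 CPM in R&Zdel at 4 days, where R&Zflox had 0.2 and 0.0677. Sult2a2 had 109 and 81.1 CPM, where R&Zflox had 0.0333 and 0.44, and Sult2a5 had 10.9 and 11.2, at least 110-fold above R&Zflox libraries at 0. At 50 and 170 days, R&Zdel libraries had 0.995 CPM or less of Sult2a1 and 0.687 or less of Sult2a2. All libraries after CD are listed as male, and their Ddx3y lay between 18.4 and 42.4 CPM with Xist at 0.25 or less, so that the 3 genes that are high in females at 1M, or read there in females alone, were read here in livers with male sex chromosome genes.

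Other gene groups moved at the same time. Of 8 male-biased liver genes 7 were called lower in R&Zdel at 4 days, and of 5 tested female-biased genes 3 were called higher. Over all genes, 5.24% were called lower and 10.2% higher. Of 6 endothelial markers 2 were called lower, and of 6 macrophage markers 1. The summed level of 8 hepatocyte markers was 106333 and 85913 CPM in R&Zdel and 117919 and 114700 in R&Zflox, with 2 of 8 called lower. The sum of 6 cholangiocyte markers was 3491 and 6226 CPM against 86.4 and 156.5, with 5 of 5 tested called higher. The sum of 5 proliferation markers was 134 and 157.5 CPM against 25.3 and 55.0, and that of 6 stellate and fibroblast markers was 216.5 and 627 against 65.3 and 101. In each R&Zflox library 1 of the 6 cholangiocyte markers was at 0. Their part in the differences of the members was not tested.

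**Figure D4:**
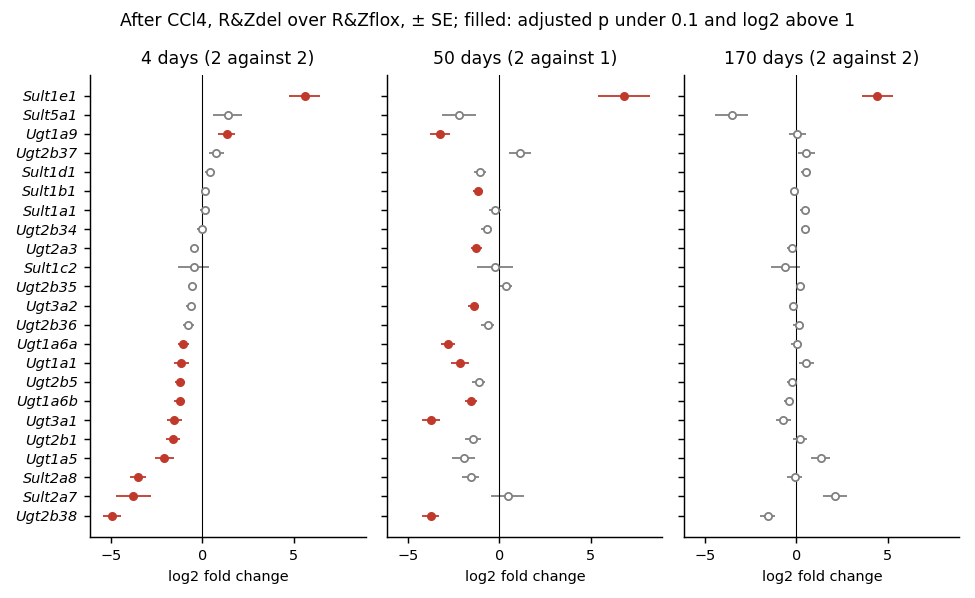
Log2 fold change of R&Zdel over R&Zflox (x axis, ± SE) of the 23 members tested after CCl4, ordered by their value at 4 days, at 4 days (2 libraries against 2), 50 days (2 against 1) and 170 days (2 against 2); filled red points were called. There are 12 filled points at 4 days, 10 at 50 days and 1, Sult1e1, at 170 days.

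At 50 days, 1 member, Sult1e1, was called higher and 9 fell of 23 tested, where 5.42% of all genes were called, 2.53% higher and 2.89% lower. The members' median was -1.26, beside 0.01 over all genes. There was 1 R&Zflox library, assumed to vary like the other groups, and without R&Zdel replicate 1 no member was called and without R&Zdel replicate 2 there were 6. Of the Ugt1a cluster, 4 members fell at this time. Ugt1a9 had 10.6 and 24.3 CPM in R&Zdel and 133 in R&Zflox (-3.23, SE 0.55, adjusted p = 0.0504). Ugt1a1 had 15.6 and 15.1 CPM against 58.2 (-2.16, SE 0.49, adjusted p = 0.0654), and Ugt1a6a 1.25 and 1.92 against 9.2 (-2.80, SE 0.38, adjusted p = 0.0431). Ugt1a6b fell as well (-1.55, SE 0.34). These R&Zdel levels were also under those of undamaged R&Zflox livers of the batch, in which Ugt1a9 was at 110 to 157 CPM in the 3 listed males. Ugt3a1, which uses N-acetylglucosamine, had 1.59 and 3.34 CPM against 27.2 (-3.75, SE 0.50, adjusted p = 0.0431), and Ugt2b38 1.03 and 1.21 against 12.8 (-3.75, SE 0.48, adjusted p = 0.0431). Smaller falls were called for Ugt3a2 (-1.41), Ugt2a3 (-1.26) and the thyroid hormone sulfotransferase Sult1b1 (-1.17). Sult2a8 had 274 and 393 CPM in R&Zdel and 822 in R&Zflox and was not called. The cholangiocyte markers summed to 578 and 1131 CPM in R&Zdel and 99.4 in R&Zflox, which was not tested against these falls.

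At 170 days, the one member called of 23 was Sult1e1, which passed the filter only through R&Zdel libraries, where 0.620% of all genes were called, 0.411% higher and 0.209% lower, and the members' median was 0.05, beside -0.00 over all genes. Ugt1a9 was back at 179 and 99.9 CPM in R&Zdel and 60.8 and 173 in R&Zflox, and Sult2a8 at 482 and 529 against 358 and 577, with overlapping groups. Ugt2b38 had 0.961 and 0.862 CPM in R&Zdel and 2.34 and 2.36 in R&Zflox, not called (-1.57, SE 0.43, adjusted p = 0.232). Sult5a1 had 2.47 and 4.21 CPM against 47.5 and 19.9, without overlap and not called (-3.54, SE 0.89, adjusted p = 0.195). Sult2a7 was the reverse of 4 days, with 21.3 and 42.4 CPM in R&Zdel and 8.04 and 4.64 in R&Zflox, and was not called. R&Zflox replicate 1 stood apart here, with 664 CPM of Cyp2f2 where the median of the R&Zflox libraries after CD was 2624. Without it, no member was called.

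The genotype difference was itself compared between the times after CD, in a test chosen after the values had been seen. Between 4 and 50 days, where 1.68% of genes were called, Ugt1a9 was the one member whose difference changed, from higher to lower in R&Zdel. The side of 50 days has 1 R&Zflox library, assumed to vary like the other groups. Between 4 and 170 days, where 7.13% were called, 6 members did so: Sult5a1, Sult2a7, Sult2a8, Ugt2b38, Ugt2b1 and Ugt1a5. Of these, Ugt2b38 passed the filter only with the help of R&Zflox libraries of 4 days, so its change is a description. No gene passed between 50 and 170 days, where 0% were called, and the other times of the undamaged livers and of PHx gave none either.

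**Figure D5:**
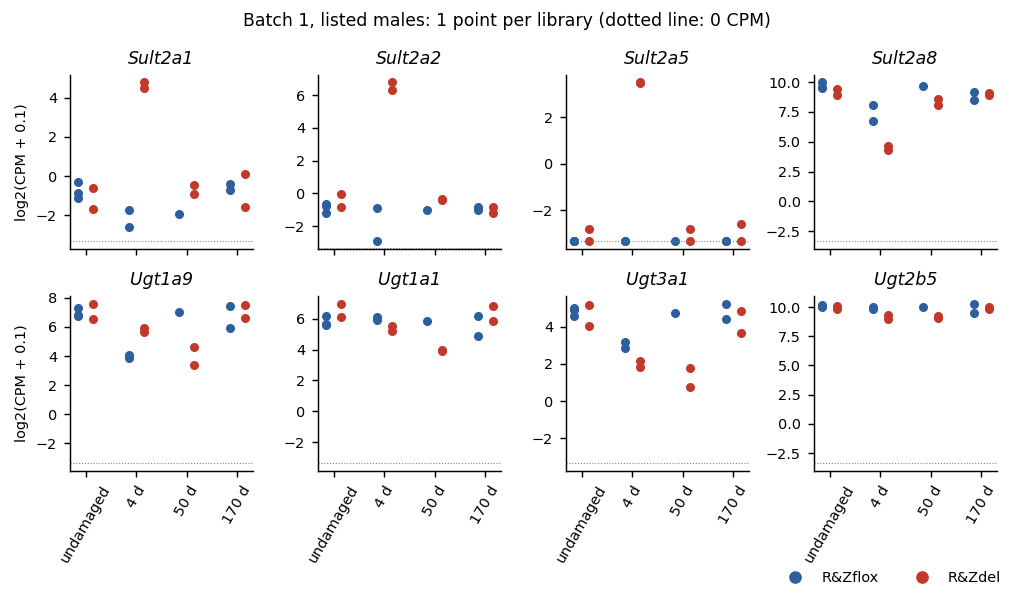
Levels of 8 members in batch 1 livers of listed males, as log2(CPM + 0.1) on the y axis, undamaged (3M and 7M) and at 4, 50 and 170 days after CCl4, with 1 point per library, blue for R&Zflox and red for R&Zdel. Sult2a1, Sult2a2 and Sult2a5 are high in R&Zdel at 4 days alone, Sult2a8 is lowest there, and Ugt1a9, Ugt1a1 and Ugt3a1 of R&Zdel are lowest at 50 days.

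The control livers themselves differed at 4 days after CCl4 from undamaged livers of the same batch, a comparison of 2 libraries with 3, all listed as male, that also differ in the months since deletion. In this comparison 1 member was called higher and 7 lower of 26 tested, where 6.07% of 13329 genes were called, 3.78% higher and 2.29% lower, and the members' median was -0.69, beside -0.01 over all genes. The count was 3 to 9 when 1 library was left out, with 3 without CCl4 replicate 2. Ugt1a9 had 14.4 and 17 CPM after damage and 110 to 157 before (-3.15, SE 0.47, adjusted p = 0.00368), without overlap. Sult2a8 had 263 and 108 CPM against 733 to 1002 (-2.27, SE 0.37, adjusted p = 0.00637). Sult1b1 had 29.2 and 24.4 CPM against 47.7 to 55.7 (-1.09, SE 0.19, adjusted p = 0.00884), also without overlap. The other members that fell were Ugt3a1 (-1.96), Ugt2b38 (-1.60), Ugt2b1 (-1.28) and Ugt1a8, which was at 0 in both damaged libraries and at 1.06 to 1.22 CPM in the others, at least 11.5-fold higher before damage. The one called higher was Sult4a1, a sulfotransferase mainly known from brain, with 0.799 and 2.17 CPM after damage and 0.163 or less in undamaged livers, and it passed the filter only with the help of a damaged library. All 5 proliferation markers and 4 of 6 macrophage markers were called higher in the same comparison, and their part was not tested.

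After PHx, as in the methods of the study, the rule was an unadjusted p under 0.05 and a log2 change of more than 1. At 7 days, 1 member was higher and 4 lower in R&Zdel of 33 tested, where 4.10% of 14043 genes were called by this rule, 1.77% higher and 2.33% lower. At 21 days, 1 was higher and 2 lower, where 6.69% were called, 3.14% higher and 3.55% lower. By the adjusted p no member was called at either time, where 0.228% and 0.306% of genes were. The calls of Sult2a2, Sult2a5 and Sult3a1 at 7 days rest on R&Zflox replicate 3, the library listed as male with Xist reads. It had 92.5 CPM of Sult2a2, 5.62 of Sult2a5 and 15.5 of Sult3a1, where the other 5 libraries of that time had 0.176 or less of each. Coded as female, the library left Sult2a2 (-2.70) and Sult2a5 (0.01) without a call and turned Sult3a1 to 4.34. The calls of Ugt2b38 and Sult1c2 were also present in that fit, but without the library both were lost (Ugt2b38 -2.68, unadjusted p = 0.0505, and Sult1c2 4.28, unadjusted p = 0.0773) and Sult2a1 was the 1 member called.

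Ugt2b38 at 7 days after PHx had 11, 0.171 and 2.88 CPM in R&Zdel and 19.3, 38.4 and 19.2 in R&Zflox, without overlap (-2.51, SE 1.19, unadjusted p = 0.0464, adjusted p = 0.811). Sult1c2, of the phenol sulfotransferases, had 6.91, 4.86 and 9.56 CPM in R&Zdel and 0.672, 0 and 0 in R&Zflox (4.86, SE 2.06, unadjusted p = 0.0284, adjusted p = 0.811). At 21 days Sult1c2 had 2.78 to 12.7 CPM in R&Zdel and 0 to 10.1 in R&Zflox, so the separation was not seen again. Ugt1a6b had 3.85, 2 and 4.55 CPM in R&Zdel at 21 days and 11.9, 9.15 and 16.5 in R&Zflox (-1.94, SE 0.78, unadjusted p = 0.0212). Sult5a1 had 18.5, 15.8 and 32.3 CPM there and 25.4, 42.3 and 49.6 in R&Zflox (-1.49, SE 0.43, unadjusted p = 0.00256), with groups that overlap before the listed sex is taken into account. Sult2a7 was at 0 in the 3 R&Zflox livers at 21 days and at 7.09, 0 and 2.19 CPM in R&Zdel. Between control livers after PHx and at 1M, no member was called at 7 days, where 0.0142% of genes were, nor at 21 days, where 0% were. In edgeR, 9 members at 7 days and 1 at 21 days had an unadjusted p under 0.05, and DESeq2 called 2 and 0. Without R&Zflox PHx 7d replicate 3 there was 1 such member at 7 days, Ugt2b1, and with that library coded as female there were 8.

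The genes that serve these enzymes were read as lists: 3 genes of UDP-glucuronic acid supply, 7 of PAPS supply, 4 of deconjugation, 4 of conjugate efflux and 13 regulators. None of their tested genes was called between the genotypes in undamaged livers at 1M, 3M or 7M, where under 1% of all genes were. At 4 days after CD, where 15.5% of all genes were called, 1 of 4 efflux genes rose, the basolateral exporter Abcc4 (3.06, SE 0.44, adjusted p = 0.00349), 1 of 6 tested PAPS supply genes fell, the sulfate transporter Slc26a1 (-1.10, SE 0.18, adjusted p = 0.00566), and 1 of 12 tested regulators rose, the receptor Nr1i3 or CAR (1.67, SE 0.31, adjusted p = 0.00913). At 50 days Slc26a1 (-1.28) and Bpnt1 (-1.02), which clears the product of sulfation, fell. In the control livers 4 days after CCl4, Nr1i3 fell (-2.86, SE 0.29, adjusted p = 0.000229), as did the exporter Abcc3 (-1.24, SE 0.19, adjusted p = 0.00521). After PHx, Papss1 and Bcl6 were called lower at 7 days and Gusb lower and Ahr higher at 21 days by the unadjusted rule, and Papss1 (-2.39, unadjusted p = 0.0483) and Bcl6 (-2.53, unadjusted p = 0.0164) also without R&Zflox replicate 3. Cux2 was called lower at 7 days as well, but it was at 27.8 CPM in that library and at 0.586 or less in the other 5, and without it was 1.65 (unadjusted p = 0.371). Between the sexes at 1M, Cux2, a repressor found in female liver, was the only regulator called of 13, and it passed the filter through females alone.

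Promoters of 36 of the 42 members, 39 sequences in all, were found in RefSeq (GRCm38.p6, 250 bases before to 50 after a start site). The half-site GTTAAT of HNF1, a factor of hepatocytes, occurred on either strand in 13 of them, or 33.3%, and in 6.43% of all 32851 promoters. The 13 are not independent. Sult2a3, Sult2a4, Sult2a5 and Sult2a6 share the stretch around a match, and so do Ugt1a9 and Ugt1a10. The STAT5 motif TTCNNNGAA, bound downstream of growth hormone, occurred in 2 of 39, where 7.02% of all promoters hold it, and CTTTGTT, another TCF form, in 1 of 39, where 5.03% hold it. A match describes letters only and is no evidence of binding. The STAT5 motif was found for Sult3a1 and for Ugt1a6a, which was not called between the sexes at 1M (log2 fold change 0.35, SE 0.92). It is absent from the windows of Sult3a2, Ugt2b37, Ugt2b38, Ugt2b1, Sult1a1 and Sult5a1, which differed between the sexes. Those of Sult3a2, Sult1a1 and Sult5a1 lie within the counted genes, which start at 33786704, 126690443 and 123158914 on the minus strand. A promoter of each kind is shown where a result above turns on its gene, with the match in capitals. That of Sult3a1 (chr10:33857472-33857721, plus strand), read in females alone at 1M, holds a STAT5 motif. The counted Sult3a1 gene starts at 33851020, so this window lies within it, ahead of a start site further downstream. The promoter of Ugt1a9 (chr1:88070529-88070778, plus strand) holds the HNF1 half-site on the opposite strand.
Sult3a1: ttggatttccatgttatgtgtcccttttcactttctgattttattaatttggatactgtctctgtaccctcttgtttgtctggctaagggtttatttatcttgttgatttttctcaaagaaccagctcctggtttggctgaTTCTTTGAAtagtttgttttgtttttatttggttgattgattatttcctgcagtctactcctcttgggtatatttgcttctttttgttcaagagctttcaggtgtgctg
Ugt1a9: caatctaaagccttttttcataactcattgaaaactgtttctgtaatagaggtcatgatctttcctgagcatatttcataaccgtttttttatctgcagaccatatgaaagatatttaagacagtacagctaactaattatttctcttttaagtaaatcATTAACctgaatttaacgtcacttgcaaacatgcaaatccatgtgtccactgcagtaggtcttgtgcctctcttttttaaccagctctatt
Sult1d1, Ugt2b34 and Ugt2a3 belong to the most abundant members, and of them only Ugt2a3 was called, at 50 days after CD.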

How the data were processed

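RNA of whole mouse livers was measured by Smart-Seq2 and single-end sequencing. Per the study's methods and the file headers, the authors aligned reads to mm10 with STAR (2.5.0a in the submitters' processing notes) and counted them on RefSeq genes with featureCounts (1.5.0-p3 and 1.5.0-p1), without strand and without reads that map to several genes. The deposited values are raw counts per gene, as integers. Groups came from the sample labels, and sex, batch and inducing agent from the study's sample list. Of 55 samples, 2 were not analysed here for want of a count table, and 5 libraries with conflicting labels entered no comparison.

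The undamaged model used the 34490 symbols that both batches share. Fits of CD, and of control livers after CCl4 against undamaged ones, used all 49997 symbols of the first batch. Fits of PHx and of the sexes used all 49568 of the second. Genes with at least 1 CPM in 3 libraries (6 after CD, 2 for the sexes) were normalized by TMM and tested across all genes with the quasi-likelihood test of edgeR 4.0.16 in R 4.3.3, with Benjamini-Hochberg adjustment. The undamaged model had terms for group, sex and batch, the PHx model for group and sex with the 1M libraries included, and the CD model for group. Standard errors were taken from the fold change and the F statistic. Folds against a group at 0 used a floor of 3 reads in each library, which covers counting error only. Scripts were tested on simulated data. Alternatives were DESeq2 1.42.0, no filter, the compared groups alone, replicate blocks, single batches or sexes, and each library left out. Same-numbered libraries gave no comparison of 3 or more pairs in which every pair's deviations correlated above 0.1 (from -0.316 to 0.436 at 7M), so the numbers were not taken to pair libraries. Named members are those called in any comparison and the 10 most abundant of each batch. The members, gene lists and tests were chosen with earlier results of these data known.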

Additional observations from a re-analysis of the deposited data

Results flagged for a closer look

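At 1M, the group of 4 libraries of each genotype was searched for a library far from the other 3, and 8 of 54 pairs of a member and a group had one. Chance alone marks about 1 in 20 such groups, and the sexes are mixed within them. In R&Zdel, Sult2a1 was at 73.1 CPM in replicate 1 (female), where the others had 9.58 or less, and Sult2a5 at 18.4 CPM in the same library, where the others had 0.483 or less. Sult2a7 was at 4.39 CPM in replicate 4 and at 0 in the others, Ugt1a9 at 81.6 CPM in replicate 2 with the others between 32 and 35, and Ugt2b36 at 646 CPM in replicate 3 with the others between 850 and 889. In R&Zflox, Sult1d1 was at 199 CPM in replicate 3, where the others lay between 35.1 and 57.4, and Sult2a5 at 24 CPM in replicate 4, where the others had 0.296 or less. Ugt1a6b was at 17.7 CPM in R&Zflox replicate 2, with the others between 4.64 and 6.81.

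The difference between R&Zdel and R&Zflox was itself compared between times after CD, in a test chosen after the values had been seen. From 4 to 50 days, where 1.68% of genes were called, Ugt1a9 differed by 4.57 on the log2 scale (SE 0.73, adjusted p = 0.0358), being higher in R&Zdel at 4 days and lower at 50 days, where there was 1 R&Zflox library, assumed to vary like the other groups. Between 4 and 170 days, where 7.13% of genes were called, Sult5a1 differed by 4.93 (adjusted p = 0.0597), Sult2a7 by -5.91 (0.0334) and Sult2a8 by -3.42 (0.0233). Ugt1a5 differed by -3.42 (0.0434) and Ugt2b1 by -1.83 (0.0941). Ugt2b38 differed by -3.38, given as a description, since it passed the filter only with the help of R&Zflox libraries of 4 days. No gene passed this test between 50 and 170 days, nor between 1M, 3M and 7M or between the times after PHx. Each fit of 4 days rests on 2 libraries per genotype.

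The 5 libraries that the labels put in no group, all of the first batch, had levels of the members that were high in females at 1M above those of the undamaged R&Zflox males of that batch. In these libraries Sult2a1 lay between 24.2 and 1010 CPM (males at 0.706 or less), Sult2a2 between 87.2 and 604 (0.529 or less), Sult3a1 between 76.2 and 622 (0.612 or less) and Sult3a2 between 4.76 and 190 (0.122 or less). Ugt2b37 lay between 2.45 and 35 CPM (2.43 or less in the males), and Sult1a1 between 768 and 1067 (519 or less). They entered no test.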

How the results depend on the processing

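Of 249 results for called members under other settings, 222 kept their direction and side of the threshold, 25 no longer passed and 2 reversed. With 1 library left out 164 of 243 kept both, 77 no longer passed and 2 reversed. The 243 include the fit without the 3 libraries that stood apart, as do the ranges for 3M and 7M below. Both kinds of reversal came from R&Zflox PHx 7d replicate 3 and concern 7 days after PHx: without it the difference of Sult2a2 was 0 (range over the libraries left out -12.92 to 0) and that of Sult3a1 0.71 (range -9.76 to 0.71), and with it coded as female, chosen after seeing the data, Sult2a5 gave 0.00700 and Sult3a1 4.34. The cause was not tested. Without the filter on low counts, which adds rarely read genes and lets more genes be called (121, 73 and 95 genes at 1M, 3M and 7M, instead of 56, 29 and 58), members called numbered 2 at 1M, 2 at 3M, 3 at 7M, 19, 18 and 5 at 4, 50 and 170 days after CD, 9 at 7 days after PHx, 14 in control livers 4 days after CCl4, 5 and 1 in control livers 7 and 21 days after PHx, and 1 for genotype by sex. All genes called then numbered 3287, 1763 and 666 after CD instead of 1845, 647 and 74. DESeq2's Wald test gave 2, 1 and 0 members at 1M, 3M and 7M (302, 134 and 92 genes), with no adjusted p for Ugt2b38 at 7M, and 4 at 170 days after CD (315 genes), 3 at 7 days after PHx, 2 for control livers 7 days after PHx and 1 for genotype by sex. The 2 compared groups alone gave 0 members at 170 days after CD, and 2 and 0 at 7 and 21 days after PHx. Males alone gave 0 at 1M, batch 2 alone gave 0 at 7M, and the adjusted p gave 0 at both times after PHx. Without the 3 libraries that stood apart, chosen after seeing the data, 2 members were called at 3M and 2 at 7M.

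The replicate numbers were shared without evidence of pairing, and a replicate block gave 0 members at 1M, 0 at 7M, and 2 and 0 at 7 and 21 days after PHx, 10 at 4 days and 1 at 170 days after CD. A crossed replicate block at 170 days, chosen after seeing the data, gave 2. No paired analysis was possible at 3M, where the genotypes share fewer than 2 numbers within a batch, nor at 50 days after CD, because R&Zflox had 1 library. With 1 library left out, members called ranged from 0 to 0 at 1M, from 0 to 2 at 3M counting the 3 libraries above, from 1 to 4 at 7M (4 without R&Zdel replicate 4), from 3 to 8, 0 to 6 and 0 to 2 at 4, 50 and 170 days after CD, from 1 to 6 (1 without R&Zflox replicate 3, 3 without R&Zflox replicate 2 or R&Zdel replicate 2 or 3) and 1 to 3 (1 without R&Zflox replicate 3) at 7 and 21 days after PHx, from 3 to 9 in control livers 4 days after CCl4 (3 without CCl4 replicate 2), from 0 to 1 and 0 to 0 in control livers after PHx, from 7 to 9 between the sexes, and 0 for genotype by sex. With 2 libraries in most arms of CD and 3 of PHx, a member that was not called is not shown to be equal between genotypes.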

Other observations

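Among members outside the naming rule, Sult2a3 and Sult2a6, neighbours in the Sult2a cluster, were picked after their values had been seen. Sult2a3 had its highest level in a grouped library, 75.4 CPM, in the R&Zflox female of the first batch at 7M, and it had a read in 14 of 18 libraries of that batch and in 7 of 30 of the second. Sult2a6 had its highest level, 37.5 CPM, in an R&Zdel female at 1M, and 10.3 CPM in an R&Zflox female, with reads in 5 of 30 libraries of the second batch. In the listed males R&Zdel 7M replicates 3 and 5, libraries that stood apart, Sult2a6 was at 2.63 and 1.84 CPM. In the 5 libraries without a group, Sult2a3 ranged from 1.27 to 106.5 CPM. These values are descriptions with no test.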
